A study of Mus musculus with 9 samples.

Results

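The set described here comprises 43 genes of the cell division cycle, named by a list of their symbols, among the 41710 gene names in the deposited mouse heart RNA-seq tables. It covers the proliferation marker Mki67, cyclins and CDK1, mitotic kinases, kinetochore and spindle proteins, DNA replication factors, CDK inhibitors, Rb1 and E2f1. The hearts came from male FVB/N mice aged 8 months in 3 groups of 3: Tg_RKIP mice, which overexpress Raf kinase inhibitor protein (Pebp1) in the myocardium from the alpha-MHC promoter, mice labelled Tg_GRK2, named for a transgene of G protein-coupled receptor kinase 2 (Grk2), and non-transgenic FVB controls. The promoter of the Tg_GRK2 transgene is not given in the sources used here. Each library is taken as 1 heart, as numbered within its group, so p-values measure only the spread between these libraries. That spread was small (common biological coefficient of variation 2.86%), and the small p-values rest on it. Whether it covers the variation between mice was not tested. Both labelled transgenic groups are compared with the same 3 FVB libraries.

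A cell enters the cycle when D-type cyclins, with their kinases, phosphorylate the retinoblastoma protein and release E2F transcription factors, which switch on genes for DNA replication. Cyclin A and cyclin B with CDK1 then drive mitosis, while CDK inhibitors such as p21, p27 and the INK4 proteins hold the kinases back. Adult cardiomyocytes rarely divide, and most cells that do divide in an adult mouse heart are fibroblasts, endothelial cells or leukocytes. Because whole hearts were sequenced, fewer cells of a type and less RNA per cell cannot be told apart.

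Libraries held 25458108 to 33447654 reads assigned to transcripts. All 43 genes passed the filter on low counts, along with the rest of the 15504 genes tested. The label check gave Pebp1 at 15967 to 16371 TPM (reads per transcript length, rescaled to a common total) in Tg_RKIP and at 316 to 330 TPM in the other 6 libraries. Grk2 was at 24.9 to 30.5 TPM in the libraries labelled Tg_GRK2 and at 25.9 to 27.9 TPM in FVB, so its level did not set these libraries apart, and Tg_GRK2 is used throughout as the name of the labelled libraries. Replicate 1 of that group held 384039 reads of the ribosomal RNA gene Rn18s, against 55110 to 78546 in the other 8 libraries. Its chi-square per gene against replicates 2 and 3 was 22.7 and 27.7, or 3.83 and 4.31 without Rn18s, where other pairs of replicates gave 1.72 to 2.75. Cardiomyocyte Myh6 was at 6434 to 7866 TPM in all 9 libraries, as the tissue label gives. Mitochondrially encoded genes took 11.5 to 11.8% of the reads in Tg_RKIP, 22.4 to 22.9% in Tg_GRK2 and 22.9 to 23.2% in FVB. Nuclear genes thus share a larger part of the total in Tg_RKIP on the TPM scale. Fold changes therefore come from edgeR with TMM scaling, which set the median log2 fold change of all genes between Tg_RKIP and FVB to 0.0085, against 0.38 with scaling to library size.

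Per length, most of these genes were low in the control heart: 18 of 43 had a mean under 1 TPM in FVB, against 14 in Tg_GRK2 and 6 in Tg_RKIP. The summed level of all 43 was 439.0 ± 3.31 TPM in Tg_RKIP, 230.3 ± 6.84 TPM in Tg_GRK2 and 228.5 ± 2.26 TPM in FVB (SD, n = 3). The 5 G1 cyclins (D-type and E-type) made up 176 ± 4.04, 81.1 ± 0.603 and 83.0 ± 1.57 TPM of these sums. The 10 replication genes stood at 124 ± 2.37, 70.3 ± 3.84 and 70.1 ± 1.5 TPM. By contrast, the mitotic cyclins with CDK1 summed to only 9.10 ± 0.857, 4.69 ± 0.147 and 3.45 ± 0.531 TPM. These sums are levels on the TPM scale and are not corrected for the larger nuclear share in Tg_RKIP. The part of the mitochondrial reads in the shift of all genes on that scale was not tested.

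**Figure D1:**
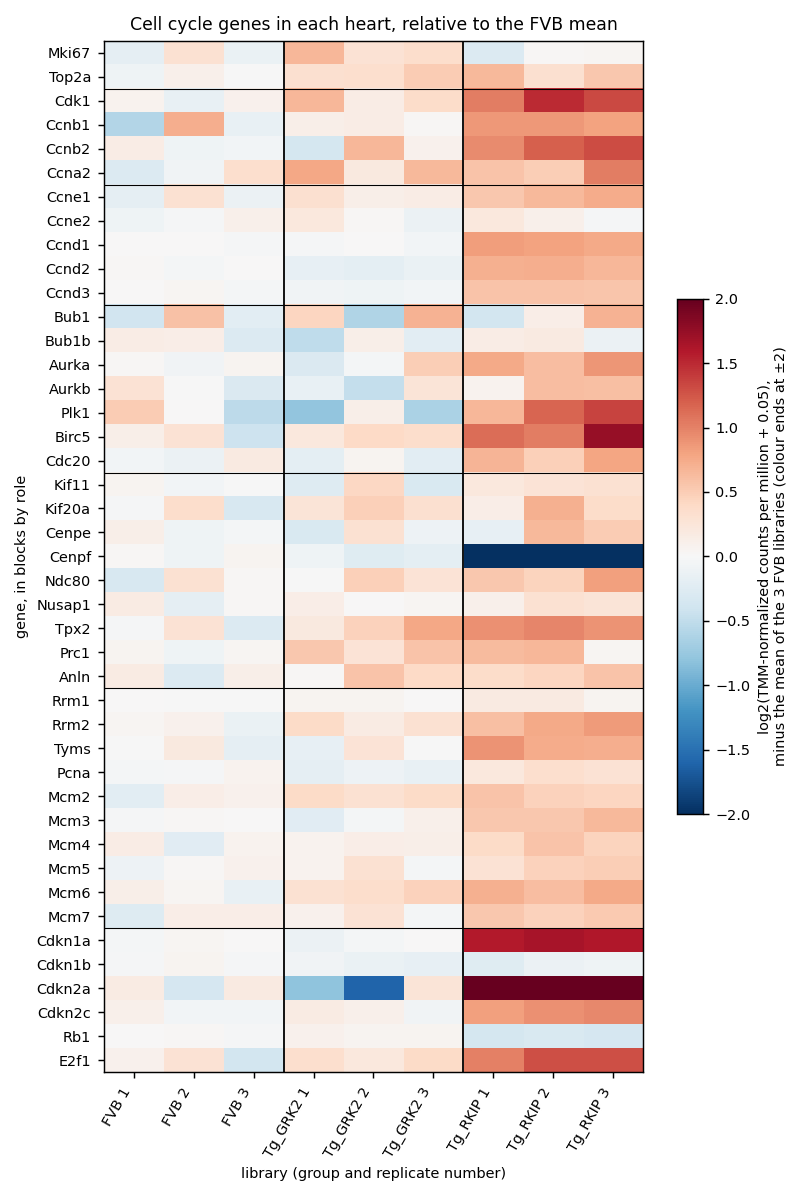
Level of each of the 43 genes (rows, grouped by role) in each of the 9 libraries (columns), as log2 of the TMM-normalised CPM relative to the mean of the FVB libraries. The D cyclins, the replication genes and Cdkn1a are higher in the 3 Tg_RKIP columns, and Cenpf is lower there.

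In Tg_RKIP hearts 30 of the 43 cell cycle genes rose against FVB, 3 fell and 10 did not pass the test (edgeR quasi-likelihood test, Benjamini-Hochberg adjusted p under 0.05 over all 15504 genes). The share that rose was 69.8%, against 36.8% of all genes tested, and the share that fell was 6.98%, against 37.1% of all genes. The median log2 fold change was 0.56 over the 43 genes and 0.0085 over all genes. With a log2 fold change of at least 1 in addition, 7 of the 43 rose (16.3%, against 10.2% of all genes) and 1 fell (2.33%, against 6.12% of all genes). All 10 replication genes rose, as did all 4 of the mitotic cyclins and CDK1, 4 of 5 G1 cyclins, 4 of 7 mitotic kinases and regulators, 3 of 9 kinetochore and spindle genes and 4 of the 6 inhibitors, Rb1 and E2f1. Counting only the most abundant transcript of each gene gave 19 of 42 that rose, beside 4183 of 15177 genes in all. Of the 30, 18 rose in that count too, Anln, Aurka, Ccna2, Ccnb1, E2f1, Mcm5, Prc1, Rrm1, Top2a, Tpx2 and Tyms lost the call, Cdkn2a was not tested, and Aurkb was called in addition. Scaling to library size gave 39 that rose and 1 that fell, beside 9710 of all genes higher and 2649 lower.

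**Figure D2:**
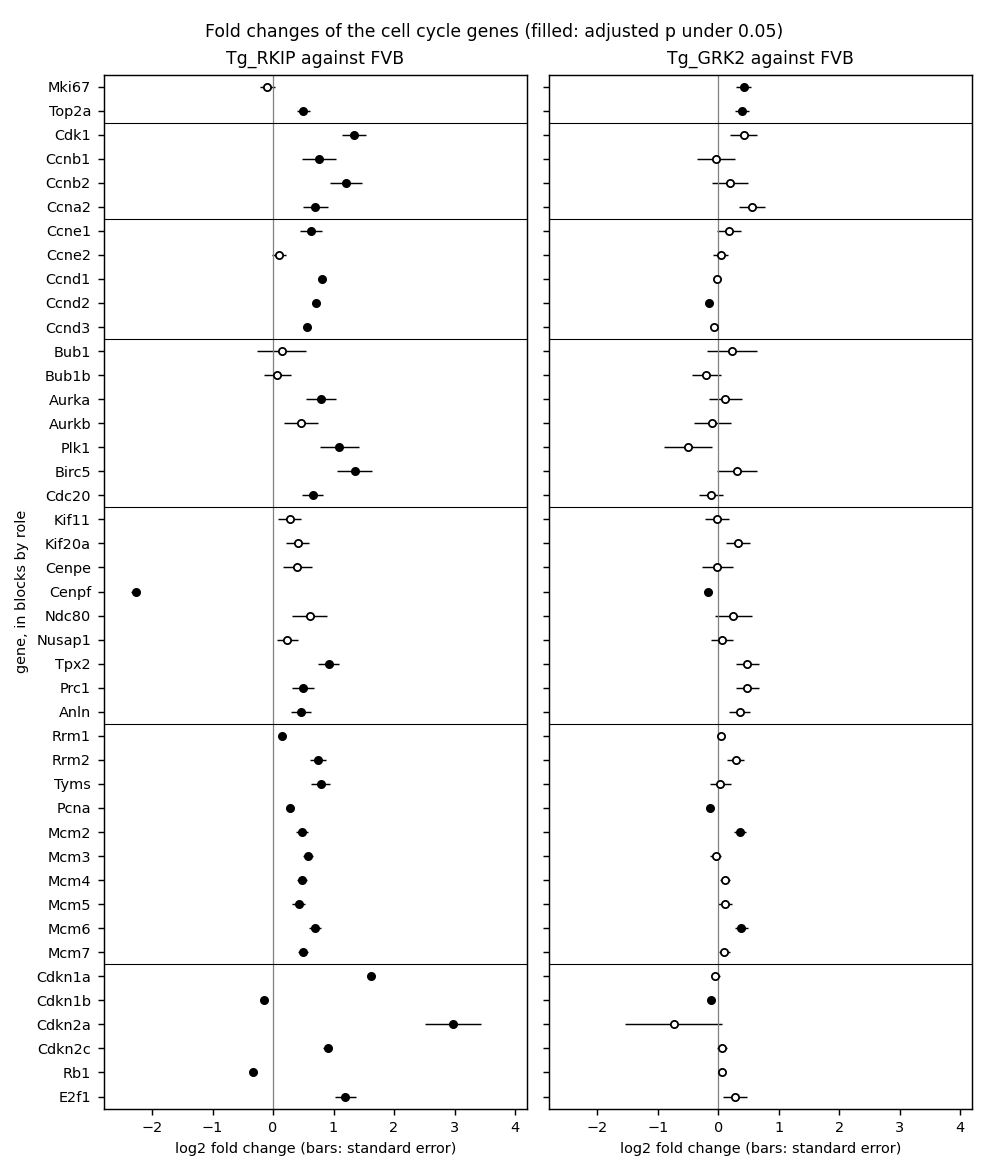
Log2 fold change of each gene in Tg_RKIP and in Tg_GRK2 against the same FVB libraries, with bars of 1 standard error, grouped by role; filled points passed the test. In Tg_RKIP 30 of 43 genes lie higher and past the threshold, and in Tg_GRK2 4 do.

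The D-type cyclins, which open the G1 phase, rose together in Tg_RKIP. Ccnd1 was at 118, 115 and 111 CPM (TMM-normalised read counts on a common total) in the 3 Tg_RKIP libraries, at 64.9, 66.1 and 63.4 in Tg_GRK2 and at 66.4, 66.2 and 64.8 in FVB. Ccnd2 was at 192, 192 and 185 CPM in Tg_RKIP, at 104, 102 and 107 in Tg_GRK2 and at 118, 114 and 118 in FVB. Every Tg_RKIP library lay above all 6 others for both genes. Log2 fold changes against FVB were 0.80 (SE 0.0287, adjusted p = 1.45e-16) for Ccnd1 and 0.70 (SE 0.0249, adjusted p = 1.24e-16) for Ccnd2. Ccnd3, at 62.6 to 62.9 CPM in Tg_RKIP and 41.2 to 43.4 CPM in FVB, rose by 0.56 (SE 0.032, adjusted p = 5.95e-13). Per length the 3 D cyclins were at similar means in Tg_RKIP, at 56.3 TPM for Ccnd1, 56.1 TPM for Ccnd2 and 58.6 TPM for Ccnd3. Of the E-type cyclins, which act at the entry into S phase, Ccne1 rose by 0.63 (adjusted p = 0.00365), while Ccne2 had a log2 fold change of 0.10 (adjusted p = 0.449). Ccne2 passed with scaling to library size (0.47) and in the 3 limma fits on TPM (0.34 to 0.46). The median of all genes was 0.38 with library size and 0.23 to 0.43 in those limma fits.

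The CDK inhibitors ranged in log2 fold change from -0.15 to 2.97 in Tg_RKIP against FVB, the lower end turning positive with scaling to library size. Cdkn1a, which encodes p21, a p53 target that binds cyclin-CDK complexes, was at 26.5, 27.7 and 27.0 CPM in Tg_RKIP, at 8.14, 8.54 and 8.87 in Tg_GRK2 and at 8.55, 9.02 and 8.90 in FVB. No Tg_RKIP library came near the other 6, and the log2 fold change against FVB was 1.62 (SE 0.0549, adjusted p = 6.1e-17). Cdkn2c, which encodes the INK4 inhibitor p18, stood at 13.6, 14.4 and 14.9 CPM in Tg_RKIP and at 8.19, 7.39 and 7.39 CPM in FVB. It rose by 0.90 (SE 0.0741, adjusted p = 3.77e-10), and the groups did not overlap. Cdkn1b, which encodes p27, was instead at 43.9, 47.8 and 48.8 CPM in Tg_RKIP against 50.9, 54.0 and 50.9 CPM in FVB. Its log2 fold change was -0.15 (SE 0.0409, adjusted p = 0.00256) with TMM but 0.23, past the threshold in the other direction, with scaling to library size, under which the median of all genes was 0.38.

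Cdkn2a was the most changed of the 43 genes by fold and also the rarest per length in FVB. The locus (chromosome 4, 89192708 to 89212890, minus strand, GRCm39) encodes p16Ink4a, an inhibitor of CDK4 and CDK6, and p19Arf, which restrains MDM2, from different first exons. Its reads numbered 22, 33 and 29 in Tg_RKIP, 1, 0 and 4 in Tg_GRK2 and 3, 2 and 3 in FVB. All 3 Tg_RKIP libraries were thus far above the rest, with 84 reads in Tg_RKIP against 8 in FVB, a depth-adjusted ratio of 8.12 (exact 95% interval of counting error only, 3.94 to 19.4). The ratio to Tg_GRK2, with 5 reads, was 13.9 (5.72 to 43.9). In the edgeR fit the log2 fold change against FVB was 2.97 (SE 0.464, adjusted p = 6.58e-06).

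The deposited tables split Cdkn2a into a pair of transcripts. The transcript with the downstream first exon (p16Ink4a) had 16, 21 and 0 reads in Tg_RKIP, 1, 0 and 4 in Tg_GRK2 and 3, 2 and 3 in FVB, a ratio to FVB of 3.58 (95% interval 1.64 to 8.89). The one with the upstream first exon (p19Arf) had 6, 12 and 29 reads in Tg_RKIP and 0 in each of the other 6 libraries. With a floor of 3 reads over the group in place of the FVB count, its ratio to FVB was 12.1, a value without an interval for counting error. How reads were divided between transcripts is not stated, and replicate 3 of Tg_RKIP had all of its 29 reads on a single transcript, so the division is less certain than the sum over the gene.

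Rb1, the pocket protein that holds E2F factors, was at 24.28, 25.01 and 24.52 CPM in Tg_RKIP, at 32.8, 32.3 and 32.3 in Tg_GRK2 and at 31.2, 31.6 and 30.4 in FVB. The Tg_RKIP libraries were the lowest 3, with a log2 fold change of -0.33 (SE 0.0389, adjusted p = 1.03e-07), which became 0.041 with scaling to library size and 0.29, past the threshold in the other direction, with limma on log2(TPM + 0.1), where the median of all genes was 0.43. E2f1, the activator that RB1 restrains, was at 2.85, 3.46 and 3.46 CPM in Tg_RKIP, at 1.75, 1.61 and 1.82 in Tg_GRK2 and at 1.48, 1.70 and 1.06 in FVB. It rose by 1.19 (SE 0.174, adjusted p = 2.62e-06), with no overlap between Tg_RKIP and the rest.

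**Figure D3:**
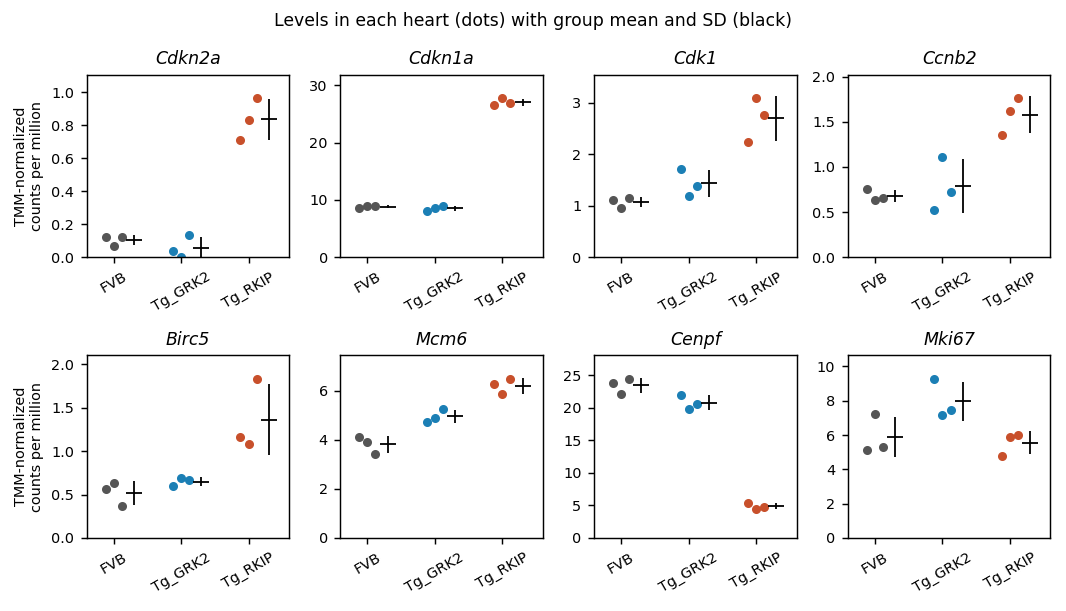
TMM-normalised CPM of Cdkn2a, Cdkn1a, Cdk1, Ccnb2, Birc5, Mcm6, Cenpf and Mki67 in each heart (dots), by group, with the group mean and SD in black. Cdkn2a, Cdkn1a and Cdk1 are higher in all 3 Tg_RKIP hearts than in the other 6, Cenpf is lower, and the Mki67 values of Tg_RKIP overlap those of FVB.

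The replication genes rose by smaller and more even amounts. All 6 subunits of the MCM helicase, which unwinds DNA at the fork, passed the test, from 0.42 for Mcm5 (adjusted p = 0.00202) to 0.69 for Mcm6 (adjusted p = 3.59e-06). Mcm6 was at 6.28, 5.86 and 6.48 CPM in Tg_RKIP and at 4.12, 3.93 and 3.43 CPM in FVB, without overlap. Rrm2, the inducible subunit of ribonucleotide reductase, and Tyms, which makes dTMP, rose by 0.74 (adjusted p = 2.35e-05) and 0.79 (adjusted p = 0.000131). Rrm1, the large reductase subunit, rose by only 0.14 (adjusted p = 0.0158), and its call was lost without Tg_RKIP replicate 1 (0.12), Tg_RKIP replicate 2 (0.12) or FVB replicate 2 (0.13). The polymerase clamp Pcna was the most abundant replication gene per length in FVB. It was at 47.7, 51.9 and 50.5 CPM in Tg_RKIP, at 36.4, 38.4 and 37.3 in Tg_GRK2 and at 39.9, 40.5 and 43.1 in FVB. Its log2 fold change was 0.28 (SE 0.0392, adjusted p = 1.2e-06), the smallest of the 10 after Rrm1.

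Mitotic genes were scarce in every library, and their errors were correspondingly larger. Cdk1, the kinase that triggers mitosis, was at 2.23, 3.08 and 2.76 CPM in Tg_RKIP, at 1.72, 1.19 and 1.39 in Tg_GRK2 and at 1.12, 0.955 and 1.14 in FVB. It rose by 1.34 (SE 0.195, adjusted p = 2.63e-06), and all Tg_RKIP hearts were above all others. Its partner Ccnb2 was at 1.36, 1.62 and 1.76 CPM in Tg_RKIP and at 0.760, 0.637 and 0.653 CPM in FVB, with a log2 fold change of 1.21 (SE 0.26, adjusted p = 0.000286). Ccnb1 rose by 0.75 (adjusted p = 0.0205) and Ccna2, which acts in S phase and G2, by 0.70 (adjusted p = 0.00412). Leaving out FVB replicate 1 or 3 lost the call for Ccnb1, at 0.49 and 0.63.

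Among the mitotic kinases and their regulators, Plk1, a kinase of mitotic entry, was at 0.809, 1.16 and 1.33 CPM in Tg_RKIP and at 0.720, 0.495 and 0.327 CPM in FVB. It rose by 1.09 (SE 0.32, adjusted p = 0.00424). Birc5 (survivin), a subunit of the chromosomal passenger complex, was at 1.17, 1.09 and 1.83 CPM in Tg_RKIP and at 0.560, 0.637 and 0.367 CPM in FVB. It rose by 1.35 (SE 0.289, adjusted p = 0.00027). In both genes the lowest Tg_RKIP library stood above the highest FVB library. The spindle kinase gene Aurka rose by 0.79 (adjusted p = 0.00703) and Cdc20, an activator of the anaphase-promoting complex, by 0.66 (adjusted p = 0.00197). The other members of this role did not pass, with log2 fold changes of 0.46 for Aurkb, 0.14 for the checkpoint kinase gene Bub1 and 0.07 for its relative Bub1b. Aurkb passed with scaling to library size (0.83) and with limma on log2(TPM + 0.1) without the filter (0.84).

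In the kinetochore and spindle genes, Tpx2, a spindle assembly factor that activates Aurora A, rose by 0.92 (adjusted p = 6.74e-05). Prc1, which bundles midzone microtubules, and Anln, which scaffolds the contractile ring, rose by 0.50 (adjusted p = 0.0194) and 0.46 (adjusted p = 0.0138). The motors Kif11 (0.27), Kif20a (0.41) and Cenpe (0.40), with Ndc80 (0.60) and Nusap1 (0.23), did not pass. Prc1 lost its call without Tg_RKIP replicate 1 (0.42), Tg_RKIP replicate 2 (0.38) or FVB replicate 2 (0.44), and Anln without Tg_RKIP replicate 3 (0.40) or FVB replicate 2 (0.32). Conversely Kif20a passed without Tg_RKIP replicate 1 (0.53) or FVB replicate 2 (0.61), Cenpe without Tg_RKIP replicate 1 (0.61) and Ndc80 without FVB replicate 2 (0.79). Kif11, Kif20a, Cenpe, Ndc80 and Nusap1 all passed with scaling to library size (0.61 to 0.98), where the median of all genes was 0.38. Without the filter, limma on log2(TPM + 0.1) called Kif11 (0.60), Cenpe (1.45) and Ndc80 (1.02), where that median was 0.23. Kif20a also passed with the replicate block (0.40).

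Cenpf, a large protein of the kinetochore corona and nuclear matrix, went the other way. It was at 5.37, 4.42 and 4.82 CPM in Tg_RKIP, at 22.0, 19.7 and 20.5 in Tg_GRK2 and at 23.8, 22.1 and 24.4 in FVB, from 145 to 175 reads per Tg_RKIP library and 596 to 625 per FVB library. The Tg_RKIP values were far below all the others, with a log2 fold change of -2.27 (SE 0.0732, adjusted p = 2.35e-17), lower than that of all but 0.722% of the genes tested. Most of these reads were on the transcript of 11130 bases. On log2(TPM + 0.1) the difference was -0.64 (limma) and did not pass, and a transcript of 358 bases, with 9, 8 and 16 reads in Tg_RKIP and 11, 7 and 2 in FVB, counts for more per length on that scale.

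Mki67 itself, the gene most used as a proliferation marker, did not pass the test in Tg_RKIP. It was at 4.79, 5.91 and 5.98 CPM in Tg_RKIP, at 9.26, 7.17 and 7.48 in Tg_GRK2 and at 5.16, 7.25 and 5.31 in FVB, so Tg_RKIP and FVB overlapped. The log2 fold change was -0.09 (SE 0.131, adjusted p = 0.534) with TMM and 0.28, past the threshold, with scaling to library size. Top2a, the topoisomerase of dividing cells, was at 6.77, 5.38 and 6.25 CPM in Tg_RKIP and at 4.04, 4.60 and 4.25 CPM in FVB. It rose by 0.50 (SE 0.109, adjusted p = 0.000323) without overlap.

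Across all genes the fold change in Tg_RKIP varied with transcript length. Genes whose most read transcript ran over 8000 bases numbered 701 and had a median log2 fold change of -0.44 against FVB, with 66.2% lower and 15.5% higher. Genes of 1000 to 2000 bases numbered 3517 and had a median of 0.17. The longest transcripts among the 43 genes were those of Cenpf (11130 bases) and Mki67 (10061 bases), the only members over 8000 bases. Of the 10 members of 1000 to 2000 bases, 9 rose, where 46.5% of all genes of that length rose and 26.1% fell. Of the 21 members of 2000 to 4000 bases, 14 rose and 1 fell, where 38.2% of all genes rose and 33.3% fell. In Tg_GRK2 the medians ran the opposite way, from -0.089 for genes up to 1000 bases to 0.076 for those over 8000. The part of transcript length in the values of Cenpf, Mki67 and the shorter members was not tested.

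**Figure D4:**
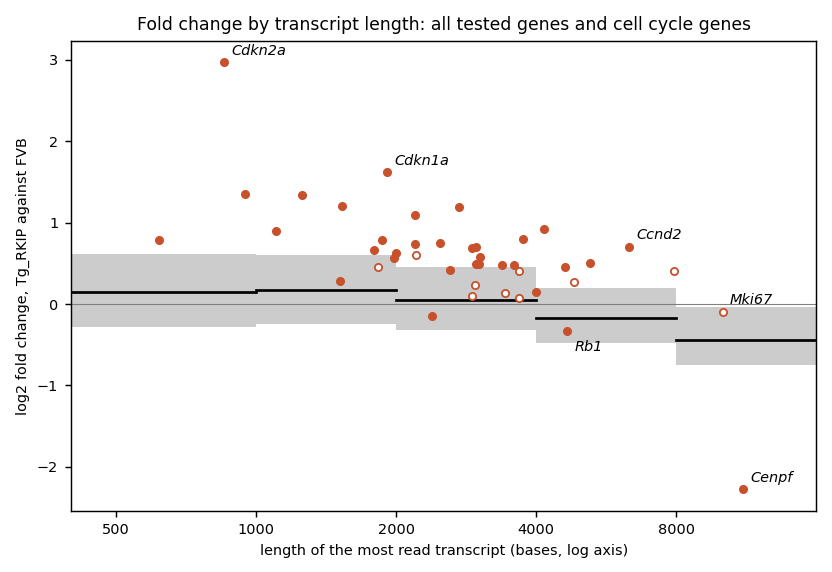
Log2 fold change in Tg_RKIP against FVB by length of the most read transcript in bases (log axis). Black lines and grey boxes give the median and quartiles of all genes tested in each length bin, and dots the 43 cell cycle genes, filled where they passed the test. The bin medians fall from 0.17 at 1000 to 2000 bases to -0.44 over 8000 bases, where Cenpf and Mki67 lie.

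Promoters of cell cycle genes are known for E2F sites, for CHR elements bound by the DREAM and MuvB complexes and for CCAAT boxes bound by NF-Y. RefSeq promoter sequence on GRCm38.p6 was at hand for 34 of the 43 genes, and Ccna2, Ccne2, Ccnd1, Ccnd2, Aurkb, Kif20a, Tpx2, Mcm4 and Rb1 had none. In the 250 bases before the start, on either strand, E2F-like TTCCCGC or TTGGCGC was present in 9 of 34 (26.5%), against 6.45% of all genes and 5.62% of all promoters in the table. CHR-like TTTGAA or TTCGAA was present in 10 (29.4%, against 19.6% of genes and 17.1% of promoters), and CCAAT in 24 (70.6%, against 37.5% of genes and 33.8% of promoters). Among the 25 of these genes that rose in Tg_RKIP, 8 held the E2F-like, 7 the CHR-like and 17 the CCAAT letters. Of the 7 that did not pass, 1, 3 and 5 held them. The E2F-like letters on the reverse strand, GCGCCAA, can share bases with CCAAT. A match describes the letters only.

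The 120 bases before the start are shown for members that rose in different roles, for both first exons of Cdkn2a and for Cenpf, which fell; capitals mark these motifs on either strand. Cdk1 (chr10:69352913-69353032, minus strand) held both CHR-like and CCAAT letters, Ccnb2 (chr9:70421555-70421674, minus strand) 3 CCAAT boxes in the same orientation, and Mcm7 (chr5:138171267-138171386, minus strand) an E2F-like and a CCAAT match. The upstream Cdkn2a promoter (chr4:89294620-89294739, minus strand) held an E2F-like match, the downstream one (chr4:89282193-89282312, minus strand) none of the 3 motifs in these bases, and Cenpf (chr1:189688087-189688206, minus strand) 1 CCAAT box.
Cdk1: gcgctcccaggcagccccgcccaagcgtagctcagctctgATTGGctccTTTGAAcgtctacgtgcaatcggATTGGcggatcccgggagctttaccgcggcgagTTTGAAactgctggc
Ccnb2: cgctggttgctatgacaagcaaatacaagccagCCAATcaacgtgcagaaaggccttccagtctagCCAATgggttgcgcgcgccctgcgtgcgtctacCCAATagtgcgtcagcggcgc
Mcm7: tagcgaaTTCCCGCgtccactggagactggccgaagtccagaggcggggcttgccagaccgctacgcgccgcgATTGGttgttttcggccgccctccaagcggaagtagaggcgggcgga
Cdkn2a, upstream first exon: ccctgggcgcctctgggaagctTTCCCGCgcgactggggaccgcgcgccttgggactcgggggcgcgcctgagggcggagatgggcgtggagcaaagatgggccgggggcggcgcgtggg
Cdkn2a, downstream first exon: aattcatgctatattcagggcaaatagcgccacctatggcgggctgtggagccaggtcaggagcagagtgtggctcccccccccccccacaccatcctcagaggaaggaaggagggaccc
Cenpf: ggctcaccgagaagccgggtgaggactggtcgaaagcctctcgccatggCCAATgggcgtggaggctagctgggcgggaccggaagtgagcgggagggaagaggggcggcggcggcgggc

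In Tg_GRK2 hearts few of the cell cycle genes differed from FVB: 4 rose, 4 fell and 35 did not pass. Each count is 9.30% of the 43 genes, against 12.2% of all genes higher and 12.2% lower, and the median log2 fold change was 0.06. The genes that rose were Mki67, Top2a, Mcm2 and Mcm6, and those that fell were Ccnd2, Pcna, Cdkn1b and Cenpf. None of the mitotic cyclins, CDK1 or the mitotic kinases passed in the main fit, and Plk1 had a log2 fold change of -0.50 (adjusted p = 0.408) and Birc5 of 0.30 (adjusted p = 0.571). Cdk1 did pass with limma on log2(TPM + 0.1) (0.67) and on log2(TPM + 1) (0.43). Ccna2 passed without the filter (0.56), with the replicate block (0.55), without Tg_GRK2 replicate 2 (0.71) and without FVB replicate 3 (0.74). Tpx2 passed without Tg_GRK2 replicate 1 (0.61) or FVB replicate 2 (0.66). limma on log2(TPM + 0.1) gave 3 that rose and 0 that fell among 35 genes tested, beside 1578 higher and 613 lower of all 13478 genes. Without Tg_GRK2 replicate 1 the counts were 5 and 3, beside 1611 and 1582 of 15760 genes.

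Mki67 had a log2 fold change of 0.42 in Tg_GRK2 (SE 0.127, adjusted p = 0.0185), with values that overlapped those of FVB. It lost the call without Tg_GRK2 replicate 1 (0.30), FVB replicate 1 (0.33) or FVB replicate 3 (0.35). Top2a rose by 0.39 (SE 0.114, adjusted p = 0.0142), with every Tg_GRK2 heart at 5.34 to 6.12 CPM above the FVB hearts at 4.04 to 4.60 CPM. Mcm2 and Mcm6 rose by 0.36 (adjusted p = 0.0148) and 0.38 (adjusted p = 0.0145). Of the D cyclins, Ccnd2 fell by 0.16 (SE 0.0264, adjusted p = 8e-05), while Ccnd1 (-0.02, adjusted p = 0.647) and Ccnd3 (-0.07, adjusted p = 0.151) did not pass. Pcna fell by 0.14 (adjusted p = 0.0178), Cdkn1b by 0.13 (adjusted p = 0.0304) and Cenpf by 0.17 (adjusted p = 0.0319), the last turning to 0.050 on log2(TPM + 0.1). Cdkn1a had a log2 fold change of -0.05 (adjusted p = 0.697), Cdkn2c of 0.06 (adjusted p = 0.651) and E2f1 of 0.28 (adjusted p = 0.341). Top2a lost the call without Tg_GRK2 replicate 3 (0.32) or FVB replicate 1 (0.35), Mcm2 without FVB replicate 1 (0.26), and Mcm6 without Tg_GRK2 replicate 3 (0.33) or FVB replicate 3 (0.31). Pcna lost it without Tg_GRK2 replicate 1 (-0.12), Tg_GRK2 replicate 3 (-0.14) or FVB replicate 3 (-0.11), and Cdkn1b without Tg_GRK2 replicate 2 (-0.12), Tg_GRK2 replicate 3 (-0.11) or FVB replicate 2 (-0.096). Cenpf lost it without Tg_GRK2 replicate 2 (-0.14), Tg_GRK2 replicate 3 (-0.17), FVB replicate 1 (-0.16) or FVB replicate 3 (-0.14). Of the 8 calls, that of Ccnd2 alone held with each of the 6 libraries left out in turn.

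Tg_RKIP and Tg_GRK2 also differed from each other directly. Against Tg_GRK2, 24 of the 43 genes were higher in Tg_RKIP (55.8%, against 37.9% of all genes) and 3 were lower (6.98%, against 36.6% of all genes). limma on log2(TPM + 0.1) gave 28 higher and 0 lower of 35, beside 8494 of all 13478 genes higher and 2274 lower. Without Tg_GRK2 replicate 1 the counts were 22 and 3, beside 5637 and 5542 of 15760 genes. The log2 difference was 1.67 for Cdkn1a (SE 0.0544, adjusted p = 2.73e-17), 3.71 for Cdkn2a (SE 0.507, adjusted p = 1.03e-06) and 0.84 for Cdkn2c (SE 0.0724, adjusted p = 8.14e-10). The D cyclins differed by 0.83 (Ccnd1), 0.87 (Ccnd2) and 0.64 (Ccnd3), with adjusted p from 3.02e-18 to 6.25e-14. Plk1, Birc5 and Ccnb2 were higher in Tg_RKIP by 1.60, 1.05 and 1.01 (adjusted p = 0.000228, 0.00174 and 0.00109). Mki67 was lower in Tg_RKIP than in Tg_GRK2 with a log2 difference of -0.51 (SE 0.122, adjusted p = 0.000778), and Cenpf of -2.10 (SE 0.0741, adjusted p = 1.12e-16). On log2(TPM + 0.1) these differences were -0.14 and -0.69, and neither passed, nor did that of Mki67 with library size (-0.15). Rb1 had a log2 difference of -0.40 (SE 0.0382, adjusted p = 4.5e-09) with TMM, but its difference was 0.20 on log2(TPM + 0.1). For Top2a (0.11, adjusted p = 0.345) and Cdkn1b (-0.02, adjusted p = 0.631) no difference passed with TMM, but Top2a was higher in Tg_RKIP with library size (0.47) and limma on log2(TPM + 0.1) (1.16), as was Cdkn1b (0.34 and 0.40).

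Other genes of the same machinery were taken from wider lists. Of 58 further mitotic genes, 27 rose in Tg_RKIP against FVB (46.6%, against 36.8% of all genes) and 3 fell (5.17%, against 37.1% of all genes), with a median of 0.57. Cdca5 (sororin, which guards sister chromatid cohesion), Cenpm and Sgo1 had the largest log2 fold changes, of 2.23, 1.67 and 1.49. Cdca5 and Sgo1 were very low in FVB, at 0.032 to 0.165 and 0.040 to 0.110 TPM, so their folds are less certain. Sgo2a, Spc24 and Ncapd2 fell by 1.23, 1.13 and 0.36 in the edgeR fit. Per length, however, Ncapd2 was higher in Tg_RKIP, at 7.54 to 9.34 against 4.23 to 5.04 TPM in FVB. Among 43 further replication genes 17 rose (39.5%, near the share of all genes) and 7 fell (16.3%), from 0.98 for Gins2, part of the CMG helicase, to -0.88 for Dut, the dUTPase. Cyclins, CDKs and their partners were divided, with 5 of 15 higher (33.3%) and 4 lower (26.7%), neither share above that of all genes. The highest there was Cks2, a CDK-binding subunit, at 2.05, and the lowest Ccnh, of the CDK-activating kinase, at -0.58. Per length Ccnh overlapped, at 25.3 to 31.1 TPM in Tg_RKIP and 24.8 to 31.2 TPM in FVB.

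The remaining lists hold both brakes on the cycle and activators of it. Among 20 other CDK inhibitors, pocket proteins, E2F and DREAM genes, 5 rose (25%) and 7 fell (35%), neither share above that of all genes. Cdkn2b, which encodes the INK4 protein p15 next to Cdkn2a, rose by 2.25 and the activator E2f2 by 1.22, whereas Rbl2 (p130) fell by 0.69 and the E2F partner Tfdp2 by 1.01. Of 15 p53 pathway genes (Trp53 itself and 14 others), 9 rose (60%, against 36.8% of all genes) and 3 fell (20%, against 37.1% of all genes). Phlda3 (2.00), Pmaip1 (1.62) and Bbc3 (1.13) were highest and Ccng1 (-0.88), Sesn1 (-0.66) and Mdm2 (-0.38) lowest. Pmaip1 was low in FVB, at 0.283 to 0.408 TPM, so its fold is less certain. Per length Mdm2 overlapped, at 34.0 to 36.9 TPM in Tg_RKIP and 34.2 to 34.6 TPM in FVB. In Tg_GRK2 against FVB the same lists gave few calls: 0 higher and 5 lower for replication, 1 and 2 for mitosis, 1 and 0 for cyclins and CDKs, 1 and 2 for inhibitors, pocket and E2F genes, and 2 and 2 for the p53 pathway. These shares ran from 0 to 13.3%, beside 12.2% of all genes in each direction. Hmmr, a spindle protein, was the 1 mitotic gene higher there, at 1.12.

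**Figure D5:**
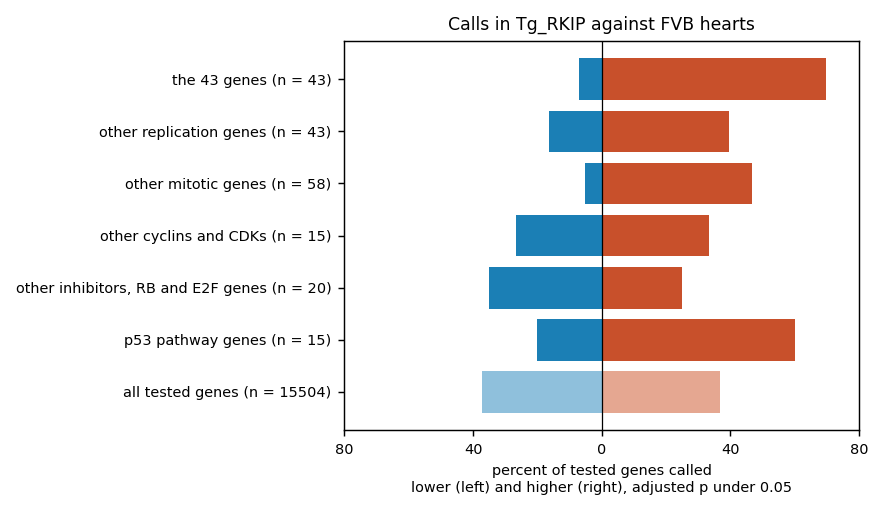
Percent of tested genes that rose (bars to the right) or fell (bars to the left) in Tg_RKIP against FVB, for the 43 cell cycle genes, each wider list and all genes tested. The bar to the right reaches 69.8% for the 43 genes and 36.8% for all genes.

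Markers of several other cell types moved with the Tg_RKIP group. All 8 fibroblast markers rose, summing to 2719 to 2733 TPM in Tg_RKIP, 1178 to 1195 TPM in Tg_GRK2 and 1032 to 1060 TPM in FVB. Macrophage markers (9 of 10 rose, 1 fell) summed to 845 to 850, 370 to 385 and 330 to 341 TPM. All 6 B cell markers and 7 of 8 T and NK cell markers rose, at sums of 7.69 to 9.04 TPM (Tg_GRK2 1.76 to 2.47, FVB 1.06 to 1.49) and of 8.42 to 12.2 TPM (Tg_GRK2 2.25 to 2.94, FVB 3.39 to 3.97). Endothelial markers were divided, with 5 of 8 higher and 3 lower (622 to 626 TPM in Tg_RKIP, 408 to 417 in Tg_GRK2, 404 to 411 in FVB), and 7 of 8 cardiomyocyte markers fell in the edgeR fit, with sums of 45857 to 46714 TPM in Tg_RKIP, 46440 to 47885 in Tg_GRK2 and 48449 to 48755 in FVB. On the TPM scale Actc1 (11390 to 11694 against 8666 to 8824 TPM in FVB) and Tnnt2 (9459 to 9562 against 7441 to 8047 TPM) were higher in Tg_RKIP. All 4 cartilage markers tested rose. The 6 listed summed to 356 to 362 TPM in Tg_RKIP, 13.5 to 13.8 in Tg_GRK2 and 13.3 to 14.7 in FVB, with Snorc at 0 in every FVB and Matn3 at 0 in every Tg_GRK2 library. All 6 adipocyte markers rose, at 918 to 944 TPM in Tg_RKIP, 511 to 546 in Tg_GRK2 and 595 to 626 in FVB. Of 5 smooth muscle markers 4 rose and 1 fell, at 766 to 784 TPM in Tg_RKIP, 292 to 303 in Tg_GRK2 and 316 to 340.4 in FVB. The 6 erythroid markers tested were higher in Tg_RKIP and in Tg_GRK2. The 7 listed summed to 3477 to 3645 TPM in Tg_RKIP and 1666 to 1691 TPM in Tg_GRK2 against 739 to 753 TPM in FVB. The 5 airway epithelium markers tested were likewise higher in both. The 7 listed summed to 94.5 to 101 TPM in Tg_RKIP and 201 to 210 TPM in Tg_GRK2 against 0.411 to 0.840 TPM in FVB, where Scgb1a1, Scgb3a2, Bpifa1 and Sftpc were at 0. The part of these cells in the values of the 43 cell cycle genes was not tested.

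The exons of 13 of the 43 genes share bases with a gene on the opposite strand, and whether counting used strand is not stated, so their values are less certain. They include Prc1 with Rccd1, Kif20a with Cdc23, Ccna2 with Exosc9, Ccnd1 with LTO1, Ccnd3 with Bysl, Cdc20 with Elovl1 and Mcm7 with Ap4m1 and Cops6.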

How the data were processed

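RNA from 9 pulverised hearts (3 Tg_RKIP, 3 Tg_GRK2, 3 FVB) was sequenced as single reads of 50 bases. The authors deposited raw read counts per transcript and, in a separate table, TPM per transcript. The aligner, counting tool and strand setting are not given in the sources used here, and the submitters' processing notes name the build GRCm39. Deposited TPM equalled the read counts divided by transcript length and rescaled (largest absolute difference 5.5e-06 TPM). The 127558 transcripts were summed to 41710 gene names.

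Genes passing filterByExpr in edgeR 4.0.16 (R 4.3.3) were fitted with the quasi-likelihood test, TMM factors and 1 mean per group over all 9 libraries, and Benjamini-Hochberg adjustment ran over 15504 genes. Depth was 25458108 to 33447654 reads per library and the common biological coefficient of variation 2.86%. On simulated counts of 14670 genes for Tg_RKIP against FVB, 93.3% of 193 changed genes were recovered and 5.76% of calls were false. In the hearts 5709 of 15504 genes rose and 5751 fell in that comparison. Recovery and false calls with so many changed genes were not tested. Alternatives were DESeq2 1.42.0 and its size factors, library-size scaling, TMM without mitochondrial genes and Pebp1, no filter, a replicate block, only the groups compared, each library left out, the most abundant transcript, and limma 3.58.1 on log2(TPM + 0.1) (genes of at least 1 TPM in 3 libraries), with a pseudocount of 1, or with no filter.

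Members, lists and motifs were chosen with earlier results of these data known. The rule for full statistics took members past the threshold with an absolute log2 fold change of at least 1. Where a role had none, the 2 members of smallest adjusted p were taken. The CDK inhibitors, D cyclins, Rb1, E2f1, Mki67, Top2a and Pcna were added whatever their result. Not all of these statistics are printed. Those left out include Cdkn2a and Rb1 in Tg_GRK2 against FVB, and E2f1 and Pcna in Tg_RKIP against Tg_GRK2. From each wider list the 3 highest and 3 lowest fold changes past the threshold could be named. Promoters came from RefSeq on GRCm38.p6, whose coordinates were kept apart from the GRCm39 positions.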

Additional observations from a re-analysis of the deposited data

How the results depend on the processing

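In Tg_RKIP against FVB, the count of cell cycle genes that rose (30) stayed within 28 to 30 and the count that fell at 3 when each library was left out in turn. The first count was 29 with DESeq2, 35 with limma without the filter and 39 with scaling to library size, and it moved by over 1.5 times only with the most abundant transcript per gene, to 19. Over all genes, 5413 of 19872, 9893 of 27280, 9710 of 15504 and 4183 of 15177 rose in these 4 fits. The count that fell became 1 with scaling to library size and 0 with each of the 3 limma fits on TPM, beside 2649 and 1947 to 2039 of all genes. In Tg_GRK2 against FVB the counts (4 and 4) became 2 lower with DESeq2, 3 and 0 with limma on log2(TPM + 0.1), 2 and 0 with a pseudocount of 1, 0 and 0 without the filter, and 1 and 1 with the most abundant transcript. Over all genes the same fits gave 1385 lower, 1578 and 613, 1604 and 628, 655 and 287, and 837 and 828. Leaving out 1 library gave 1 to 5 higher and 1 to 3 lower. Tg_RKIP against Tg_GRK2 (24 and 3) gave 39 and 1 with library size, beside 9608 and 2847 of all 15504 genes. It gave 15 higher with the most abundant transcript, beside 4376 of 15177 genes. The limma fits gave 0 lower, beside 2274 to 2371 of all genes. Counts were 22 to 26 higher and 3 lower when a library was left out.

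Signs changed in the following cases. For Tg_RKIP against FVB, library size gave 0.28 (Mki67), 0.23 (Cdkn1b) and 0.041 (Rb1). limma gave 0.31, 0.35 and 0.29 for these genes with and without the filter, and 0.16, 0.34 and 0.27 with a pseudocount of 1. For Tg_GRK2 against FVB limma gave 0.028 (Ccnd1) and 0.050 (Cenpf), or 0.027 and 0.048 with the pseudocount of 1. For Tg_RKIP against Tg_GRK2, Cdkn1b was at 0.34 with library size, and limma gave 0.40 (Cdkn1b) and 0.20 (Rb1), or 0.39 and 0.19. The most abundant transcript gave -0.079 for Rrm1 (Tg_RKIP against FVB), -0.13 for Cdkn2c (Tg_GRK2 against FVB) and -0.20 for Top2a (Tg_RKIP against Tg_GRK2). Leaving out 1 library gave, against FVB in Tg_RKIP, -0.19 to 0.089 for Mki67, -0.17 to 0.56 for Bub1 and -0.055 to 0.16 for Bub1b, and -0.052 to 0.017 for Cdkn1b against Tg_GRK2. With limma on log2(TPM + 0.1) the median of all genes was 0.428 in Tg_RKIP against FVB and 0.397 against Tg_GRK2, and causes beyond such shifts were not tested.

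The labels number hearts 1 to 3 in each group, but correlations of same-numbered hearts ran from -0.063 to 0.044, so the numbers did not pair the samples. With the replicate block the counts were 31 and 3, 5 and 4, and 24 and 3 in the 3 comparisons. The low reads of Cdkn2a, Plk1, Birc5, Ccnb1 and Bub1 limit their precision.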
